A study of Mus musculus with 12 samples.

Results

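The genes described here encode heat shock proteins, DnaJ proteins, the Cct chaperonin, Bag proteins and protein disulfide isomerases. They were chosen by symbol: every gene of the deposited table whose probe set carries a single symbol that begins with Hspa, Hspb, Hspd, Hspe, Hsph, Hsp90, Dnaja, Dnajb, Dnajc, Bag or Pdia, together with Cct2 to Cct8 and Tcp1. This gave 56 of the 5856 genes with a single symbol, of which 30 encode mainly cytosolic proteins, 13 proteins of the endoplasmic reticulum (ER), 7 mitochondrial proteins and 6 proteins placed elsewhere. The rule uses symbols and no difference between genotypes; of several probe sets for a gene, the one with the highest mean over all arrays was taken. RefSeq lists 94 protein-coding mouse genes that fit the same rule, and the other 38, among them Hsp90ab1 and Hspa1a, were not analysed here. Of the 56, 53 had a mean intensity above 100 in all 4 genotypes, and Dnajc21, Dnajc4 and Dnajc7 did not.

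The mRNA was measured in livers of untreated 8-week-old male C57BL/6 mice of 4 genotypes, with 3 mice and 3 arrays each, as log2 intensity on Affymetrix arrays. The genotypes form a graded series of Nrf2 activity. Nrf2-null mice lack the transcription factor Nrf2. Wild-type mice carry both genes intact. Keap1-knockdown (Keap1-KD) mice carry a floxed Keap1 allele that lowers Keap1, the protein that holds Nrf2 back, throughout the body. Keap1-hepatocyte knockout (Keap1-HKO) mice carry the same floxed allele plus a Cre recombinase driven by the albumin promoter, so that hepatocytes lose Keap1 and the other liver cells keep the knockdown allele. All 3 comparisons with wild-type use the same 3 wild-type arrays.

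Molecular chaperones bind unfolded stretches of protein and let them fold, assemble or be degraded. Hsp70 proteins do this in cycles of ATP hydrolysis that DnaJ proteins start and nucleotide exchange factors such as Bag and Hsp110 proteins end, while Hsp90 proteins act on nearly folded clients and the Cct ring folds actin and tubulin. In the ER, Hspa5 (BiP) and Hsp90b1 (Grp94) serve the secreted proteins that hepatocytes make in large amounts, and disulfide isomerases form their disulfide bonds. Cytosolic members are classic targets of heat shock factor, and ER members of the unfolded protein response.

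The arrays matched their labels. Nfe2l2, the gene of Nrf2, lay between 2.29 and 2.46 on the log2 scale in Nrf2-null arrays and between 8.81 and 8.94 in wild-type arrays, and Keap1 lay between 7.80 and 7.97 in wild-type, 5.59 and 5.92 in Keap1-KD, and 3.34 and 3.39 in Keap1-HKO arrays. Of 8 known Nrf2 targets outside the chaperones, 7 were higher in Keap1-HKO than in wild-type mice. Hepatocyte markers (9 of 10 measured) had a median log2 intensity of 14.96 to 15.66 on every array. The Keap1-HKO arrays had the lowest medians (14.96, 15.05 and 15.17, against 15.42 to 15.66 elsewhere), and of the 9 markers 1, Fgb, was called lower against wild-type and 3 against Nrf2-null. Some arrays stood apart. Keap1-HKO replicate 1 correlated best with Nrf2-null replicate 1 (r = 0.93 over all genes) and less with its own group (r = 0.798 and 0.844), and the median of 20 poly-A spike-in probe sets was 9.59 and 8.69 on these 2 arrays against 7.12 to 8.03 on the other 10. Pancreas acinar markers (13 of 17 measured) had a summed intensity of 208100 and 28010 on Keap1-HKO replicates 2 and 3 and of 494.3 to 1352 elsewhere, and skeletal muscle markers (11 of 18 measured) 35550 and 13310 on these arrays, 25820 on wild-type replicate 2 and 193.9 to 461.2 elsewhere. On those other arrays 11 or 12 of the 13 pancreas genes and 10 of the 11 muscle genes were under an intensity of 100. Values without some of these arrays are given beside a number of the genes below, and the counts of calls without them stand in the closing section. A fit without the pancreas and muscle arrays leaves Keap1-HKO replicate 1 as the only Keap1-HKO array, assumed to vary like the other groups.

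Few chaperone mRNAs passed the test at any point of the graded series. In Nrf2-null mice none of the 56 passed (limma with Benjamini-Hochberg adjustment over all 5856 genes, adjusted p under 0.05; 0.41% of all genes passed). At an unadjusted p under 0.05, 1 member was higher and 0 were lower, beside 3.3% and 3.62% of all genes. The methods' Duncan's test, unadjusted over genes, gave 2 (5.4% of all genes). In Keap1-KD mice again none passed (0.0683% of all genes passed). There 1 member was higher and 0 were lower at an unadjusted p under 0.05, beside 1.42% and 1.13% of all genes, and Duncan's test gave 1 (2.25% of all genes). In Keap1-HKO mice 1 of 56 rose and 0 fell (1.79% of the members in all), where 2.1% of all genes rose and 1.84% fell, 3.94% together. Unadjusted, 3 members were higher and 1 was lower, beside 9.26% and 9.39% of all genes.

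Between the ends of the series, Keap1-HKO against Nrf2-null, 1 of 56 was higher and 0 were lower, while 4.51% of all genes were higher and 4.63% lower (9.14% together). Keap1-HKO against Keap1-KD gave 0 of 56 by limma (1.43% of all genes passed), 4 by Duncan's test (9.61% of all genes), and 3 higher and 0 lower at an unadjusted p under 0.05, beside 6.75% and 6.1% of all genes. The linear trend over the 4 genotypes was positive for 1 of 56 and negative for 0, beside 4.51% and 4.7% of all genes (9.2% together). The overall test of the 4 genotypes, which 4.83% of all genes passed, was passed by Dnajc12. Counted by arrays alone, 8 members lay above and 3 below all wild-type arrays in Nrf2-null mice (12.1% and 8.76% of all genes), 5 and 2 in Keap1-KD mice (7.02% and 8.21%), and 7 and 3 in Keap1-HKO mice (12.7% and 14.9%). The median log2 fold change of the members against wild-type was 0.00 for Nrf2-null, 0.04 for Keap1-KD and 0.03 for Keap1-HKO, beside 0.02, -0.01 and -0.01 over all genes.

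**Figure D1:**
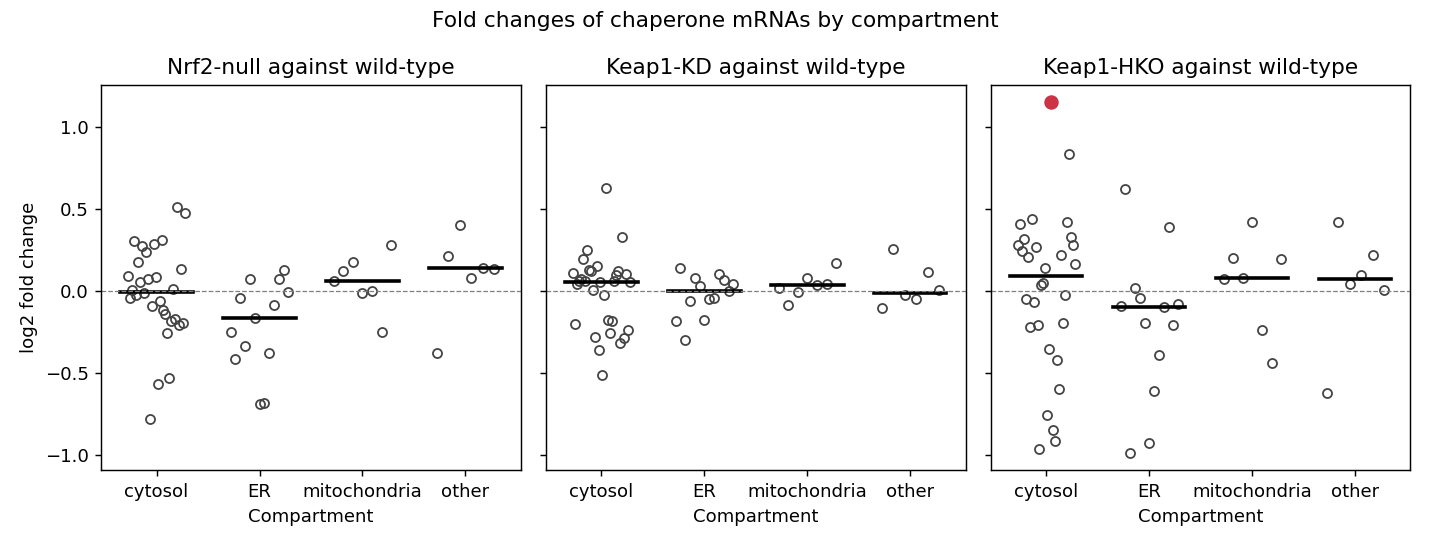
Log2 fold change of each of the 56 chaperone genes against wild-type (vertical axis) by the compartment of the protein (horizontal axis), with a panel for each mutant genotype; each circle is a gene, the black bar is the median of the compartment and a filled red circle passed the test. The only filled circle is Dnajc12 in Keap1-HKO mice, at 1.15.

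The gene that passed was Dnajc12, a cytosolic DnaJ co-chaperone that binds Hsp70 and is known for keeping aromatic amino acid hydroxylases, among them hepatic phenylalanine hydroxylase, folded. Its log2 intensities were 7.61, 7.41 and 7.64 in wild-type mice, 7.97, 7.64 and 7.99 in Nrf2-null mice, 8.05, 8.37 and 8.12 in Keap1-KD mice, and 8.85, 8.52 and 8.74 in Keap1-HKO mice. The Keap1-HKO arrays lay above all 9 others, and the wild-type arrays lay below all others, although the highest of them and the lowest Nrf2-null array both round to 7.64. The mRNA of Dnajc12 was 122% ± 14.3 (SEM, n = 3) higher in Keap1-HKO than in wild-type mice, 55.2% ± 10.8 higher in Keap1-KD and 24.6% ± 9.25 higher in Nrf2-null mice. Only the first of these passed the limma test (log2 fold change 1.15, SE 0.15, adjusted p = 0.00262), while the adjusted p was 0.68 in Keap1-KD and 0.779 in Nrf2-null mice.

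Dnajc12 was also higher in Keap1-HKO than in Nrf2-null mice by a log2 fold change of 0.84 (SE 0.15, limma adjusted p = 0.00683). It was the member with a call in the linear trend as well (limma adjusted p = 0.00247). Against Keap1-KD the log2 difference was 0.52 and did not pass (limma adjusted p = 0.168). The lower end of the series did not follow its order: Nrf2-null mice had a higher mean than wild-type mice. The call against wild-type held in all 24 alternative fits that could be made, with log2 fold changes of 0.94 to 1.24. The call against Nrf2-null was lost in 2 of 25, once under array quality weights (limma adjusted p = 0.0578) and once when the fit held just those genotypes (limma adjusted p = 0.122). Keap1-HKO replicate 1, which had pancreas and muscle markers near the floor, had the highest Dnajc12 value, 8.85, and without the arrays that stood apart the log2 fold change was 1.08 (limma adjusted p = 0.00224). The gene is represented by 1 probe set.

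Dnajb9 (ERdj4), a DnaJ protein of the ER lumen that keeps the stress sensor Ire1 bound to Hspa5, had log2 intensities of 11.15, 10.93 and 10.58 in wild-type, 9.81, 10.63 and 10.99 in Nrf2-null, 10.83, 11.35 and 10.91 in Keap1-KD and 10.83, 11.74 and 11.96 in Keap1-HKO mice. Keap1-HKO replicates 2 and 3 were the highest of the 12 arrays and replicate 1 lay within the wild-type range. The log2 fold change in Keap1-HKO mice was 0.62 with an SE of 0.35, and it did not pass (limma adjusted p = 0.356). With replicate 1 of both Keap1-HKO and Nrf2-null left out it was 0.96 (SE 0.21, limma adjusted p = 0.0201), and 3 of 56 members then passed, all higher, beside 11.5% of all genes. The others were Dnajc12 and Dnaja2, a cytosolic DnaJ partner of Hsp70, with 0.39 (limma adjusted p = 0.0455). With the same arrays left out, Dnajb9 was higher in Keap1-HKO than in Nrf2-null mice by 1.04 (limma adjusted p = 0.0129), one of 5 members that passed beside 20.9% of all genes. With Keap1-HKO replicate 1 alone left out, the value of 0.96 did not pass (limma adjusted p = 0.147). The pancreas and muscle markers were high on the Keap1-HKO arrays that remained in these fits. Without the arrays that carried those markers, the log2 fold change of Dnajb9 was -0.04 against wild-type (limma adjusted p = 0.961) and 0.36 against Nrf2-null (limma adjusted p = 0.557).

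Hspb6 (Hsp20), a small heat shock protein known from muscle, was 76.2% ± 37.2 (SEM, n = 3) higher in Keap1-HKO than in wild-type mice. The log2 intensities were 8.00, 8.73 and 7.77 in Keap1-HKO, 7.15, 7.97 and 6.87 in wild-type, 7.40, 6.81 and 7.16 in Nrf2-null and 7.24, 6.95 and 6.94 in Keap1-KD mice. The wild-type value of 7.97 came from replicate 2, which carried muscle markers, and it lay inside the Keap1-HKO range, so the groups overlapped. The log2 fold change was 0.83 (SE 0.31, limma adjusted p = 0.193). Keap1-HKO replicate 1 had 8.00 without muscle markers, of which 10 of 11 were under an intensity of 100. Without the pancreas and muscle arrays the log2 fold change was 0.98 (SE 0.27) and passed (limma adjusted p = 0.0314, beside 38.5% of all genes called), with array quality weights it was 1.63 (limma adjusted p = 0.0414), and Duncan's test called it as well. Against Nrf2-null the log2 difference of 1.04 did not pass in the fit of all arrays (limma adjusted p = 0.0709) and passed in 5 alternatives, among them without wild-type replicate 2 (limma adjusted p = 0.0413). In bulk liver RNA, fewer cells of a type and less RNA per cell cannot be told apart.

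**Figure D2:**
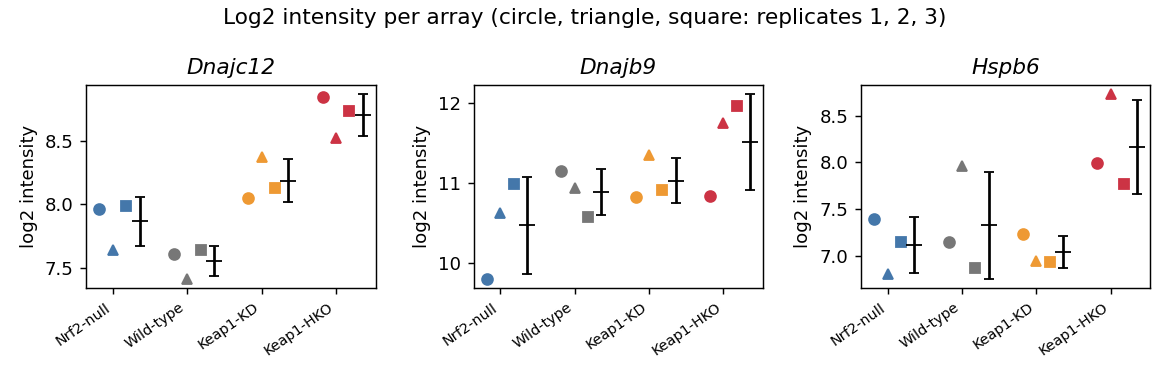
Log2 intensity (vertical axis) of Dnajc12, Dnajb9 and Hspb6 on each array, by genotype (horizontal axis); circles, triangles and squares are replicates 1, 2 and 3, and the black bars give the mean and SD of the 3 arrays. All 3 Keap1-HKO values of Dnajc12 lie above the other 9 arrays, while Keap1-HKO replicate 1 of Dnajb9 and wild-type replicate 2 of Hspb6 lie in the range of the other group.

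The Hsp90 and Hsp70 chaperones of the cytosol and the ER showed no call by limma in the fit of all arrays, by the probe set used for each gene. A second probe set of Hsp90b1 passed in the linear trend, downward, as given below. By the probe sets used, the widest differences of these chaperones lay between replicates. With array quality weights Hsp90b1 and Hspa5 were called lower in Nrf2-null mice, by log2 fold changes of -0.63 and -0.49 (limma adjusted p = 0.0311 and 0.0115), in a fit that called 23.5% of all genes. The same weights called Hsph1, an Hsp110 exchange factor, higher in Keap1-HKO mice (1.20, limma adjusted p = 0.043, 5.43% of all genes). Hsp90aa1, the inducible cytosolic Hsp90, had log2 intensities of 12.03, 12.16 and 12.34 in wild-type and 12.27, 12.08 and 12.35 in Keap1-KD mice. In Nrf2-null mice the values were 10.70, 12.44 and 11.78, and in Keap1-HKO mice 9.97, 12.82 and 11.95. The lowest value of each of these groups belonged to replicate 1, while Keap1-HKO replicate 2 held the highest of all 12 arrays. The fold change in Keap1-HKO mice was -0.60 (log2, SE 0.63) and changed to 0.21 without the arrays that stood apart, with no call in either fit (limma adjusted p = 0.569 and 0.653).

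Hsp90b1, the Hsp90 of the ER, had log2 intensities of 13.18, 13.66 and 13.82 in wild-type, 12.21, 13.34 and 13.04 in Nrf2-null, 13.20, 13.24 and 13.69 in Keap1-KD and 11.10, 13.63 and 13.15 in Keap1-HKO mice. The Hsp70 of the ER, Hspa5, followed the same arrays, with 14.33, 14.52 and 14.59 in wild-type and 13.21, 14.77 and 14.29 in Keap1-HKO mice. Both were lowest on Keap1-HKO replicate 1. Their log2 fold changes in Keap1-HKO mice were -0.93 (SE 0.56, limma adjusted p = 0.38) and -0.39 (SE 0.32, limma adjusted p = 0.488). Without the arrays that stood apart they were -0.17 and 0.05. The second Hsp90b1 probe set was dimmer, with mean log2 intensities of 12.47 (wild-type), 12.31 (Nrf2-null), 11.83 (Keap1-KD) and 11.23 (Keap1-HKO). Its linear trend of -3.88 passed in the fit of all arrays (limma adjusted p = 0.0429 over all probe sets). The Keap1-HKO difference of this probe set from wild-type, -1.24, did not pass (limma adjusted p = 0.0717 over all probe sets). Hspa13, a microsomal Hsp70 relative, had 7.71, 11.26 and 10.57 in Keap1-HKO mice, so that a single genotype held both the lowest and the highest of the 12 values.

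Of the cytosolic Hsp70 proteins, Hspa8, the constitutive form, ranged from 13.14 to 14.75 on the log2 scale within Keap1-HKO mice and from 13.81 to 14.04 within wild-type mice. Hspa1b, a stress-inducible form whose mRNA is close in sequence to that of Hspa1a so that its probe set may not tell them apart, was highest at 11.57 on Keap1-HKO replicate 2 and reached 11.18 on wild-type replicate 2. Hsph1 was also highest on Keap1-HKO replicate 2, at 10.02. Their log2 fold changes in Keap1-HKO mice in the fit of all arrays were -0.03, 0.22 and 0.28, none past the test. Mitochondrial Hspa9 differed by -0.24 (log2, limma adjusted p = 0.46).

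**Figure D3:**
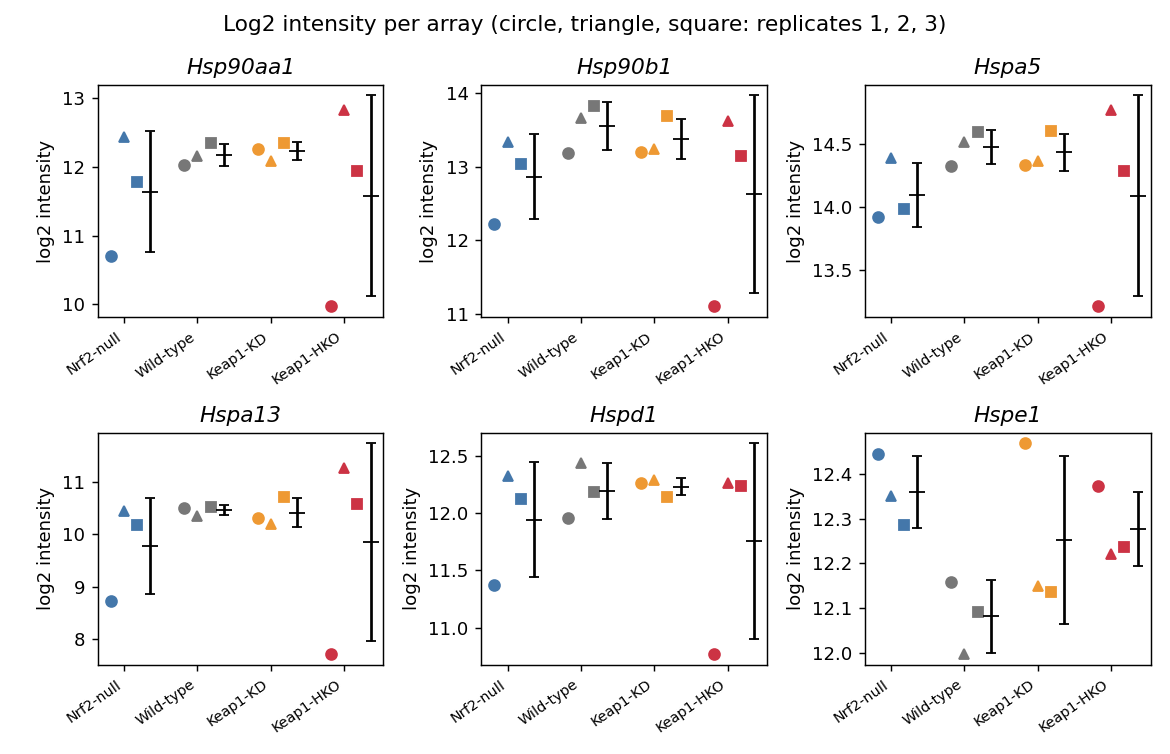
Log2 intensity (vertical axis) of Hsp90aa1, Hsp90b1, Hspa5, Hspa13, Hspd1 and Hspe1 on each array, by genotype (horizontal axis); circles, triangles and squares are replicates 1, 2 and 3, and the black bars give the mean and SD of 3 arrays. For all but Hspe1 the lowest of the 12 values is Keap1-HKO replicate 1 and the next lowest is Nrf2-null replicate 1.

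The low values on Keap1-HKO replicate 1 were shared by many members. This array was the lowest of 12 for 23 of 56 members (41.1%; 28% of all genes) and the highest for 14 (25%; 34.7% of all genes). By compartment it was the lowest for 7 of 13 ER members, 13 of 30 cytosolic members and 2 of 7 mitochondrial members. Compared with the mean of replicates 2 and 3, it was lower by more than 1 on the log2 scale for 19 of 56 members. Over all genes, 1166 of 5856 were lower by more than 1. The members were led by Hspa13 (-3.21), Dnajc2 (-2.63), Dnaja1 (-2.47) and Hsp90aa1 (-2.41). The array was higher by more than 1 for Dnajc4 (1.18) and Bag6 (1.03), and for 433 of all 5856 genes. Nrf2-null replicate 1 deviated from its own replicates the same way: the 2 sets of deviations had a Pearson r of 0.842 over the 56 members and 0.787 over all genes. This is a description across genes, which are not independent replicates. The spike-in controls that were high on the same arrays are given above. The 3′ minus 5′ difference of the Gapdh control probe sets was 0.192 on Keap1-HKO replicate 1, 0.543 on Nrf2-null replicate 1 and 0.529 to 0.931 elsewhere, and that of the actin controls 2.03, 2.36 and 2.51 to 2.91. The labels do not tie a labelling kit to single arrays. The part of these measures in the deviations was not tested.

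The probe sets of a single gene did not always share the low values. Of 29 members with several probe sets, 8 had probe sets whose deviations on Keap1-HKO replicate 1 differed by more than 1 on the log2 scale. For Hsp90aa1 they were -2.47, -2.41 and 0.09, and for Hspa13 they were -3.21 and -0.49. For Hsp90b1 they were -2.29 and -0.77, and the 4 of Dnajc3 ran from -3.91 to -1.08. For Hspa5 2 probe sets gave -1.31 and -1.23 and the dimmest gave -0.04. The 3 probe sets of Dnaja1, by contrast, gave -2.47, -2.15 and -1.85.

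**Figure D4:**
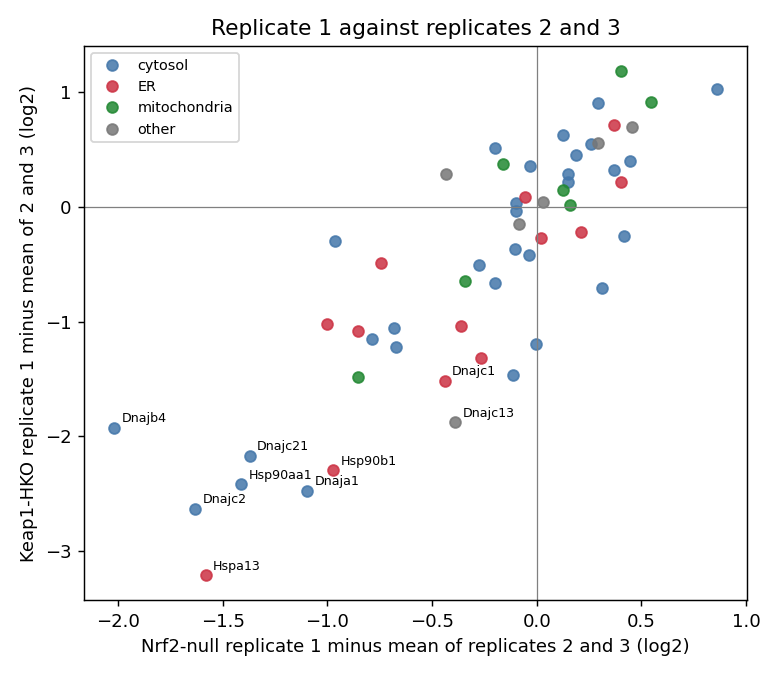
Deviation of Keap1-HKO replicate 1 from the mean of replicates 2 and 3 (vertical axis, log2) against the same deviation of Nrf2-null replicate 1 (horizontal axis, log2) for the 56 chaperone genes, coloured by compartment. Genes lower than their replicates on both arrays, such as Hspa13 at -3.21 and -1.58, fill the lower left, and the labels name genes below -1.5 on the vertical axis.

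The ER and cytosolic members differed little in their median. The median log2 fold change of the 13 ER members was lower than that of the 30 cytosolic members by 0.16 for Nrf2-null, 0.06 for Keap1-KD and 0.19 for Keap1-HKO. Per array, the ER median minus the cytosolic median of the differences from the wild-type mean was -0.13, 0.01 and 0.11 in wild-type, -0.52, -0.11 and -0.16 in Nrf2-null, -0.12, -0.17 and 0.12 in Keap1-KD and -0.18, -0.02 and -0.11 in Keap1-HKO mice. The groups overlapped, and leaving out 1 array at a time gave -0.29 to -0.14 for Nrf2-null (-0.29 without Nrf2-null replicate 2), -0.07 to -0.01 for Keap1-KD (-0.01 without wild-type replicate 3) and -0.30 to -0.06 for Keap1-HKO (-0.06 without Keap1-HKO replicate 1). Within the ER, 3 of 13 members had a log2 fold change above 0 in Keap1-HKO mice, beside 2856 of all 5856 genes. In Nrf2-null mice it was also 3 of 13, beside 3085 of all 5856 genes. None passed in either genotype.

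Among the other ER members, Dnajc1, a membrane DnaJ protein that binds Hspa5, had 9.51, 9.75 and 9.36 in wild-type and 7.55, 9.17 and 8.95 in Keap1-HKO mice. All Keap1-HKO values were below all wild-type values. The log2 fold change of -0.99 (SE 0.36) was the lowest of all members in this comparison and did not pass (limma adjusted p = 0.174). It was -0.48 without the arrays that stood apart (limma adjusted p = 0.0598), and -1.89 with a call without the pancreas and muscle arrays, where Keap1-HKO replicate 1 stands alone (limma adjusted p = 0.00794). Pdia4, a disulfide isomerase, was 30.7% ± 8.08 (SEM, n = 3) higher in Keap1-HKO mice, with 11.03, 10.90 and 10.72 against 10.60, 10.23 and 10.64 in wild-type and no overlap (limma adjusted p = 0.303). Pdia3, Pdia5 and Pdia6 differed by -0.10, -0.21 and -0.08 on the log2 scale. Dnajc3, an ER DnaJ protein known to inhibit the kinase Perk, differed by -0.19. Its other probe sets, all dimmer, gave -0.75, -1.05 and -1.30, none called by limma.

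Promoters of 45 members were in the RefSeq table (GRCm38.p6, 250 bases before to 50 after the start), and 59 such promoters belonged to them. The sequences below are shown because these members are the textbook targets of the ER stress and heat shock pathways. The ER stress element, CCAAT and CCACG with 9 bases of any kind between them, searched on both strands, was found in 4 ER members (4 of 59 promoters of the members, 6.78%, beside 0.119% of 32851 promoters). Each is printed in the direction of the gene with the element in capitals and 20 bases on either side.
Hspa5, chr2:34772005-34772063, plus strand: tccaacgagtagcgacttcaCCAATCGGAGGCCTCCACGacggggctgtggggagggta
Hsp90b1, chr10:86705513-86705571, minus strand: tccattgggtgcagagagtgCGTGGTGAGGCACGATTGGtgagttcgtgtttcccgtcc
Hsp90b1, chr10:86705618-86705676, minus strand: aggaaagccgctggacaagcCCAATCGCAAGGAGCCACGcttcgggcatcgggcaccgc
Pdia6, chr12:17266471-17266529, plus strand: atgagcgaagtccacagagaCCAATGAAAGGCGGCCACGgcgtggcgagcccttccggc
Dnajc3, chr14:118937807-118937865, plus strand: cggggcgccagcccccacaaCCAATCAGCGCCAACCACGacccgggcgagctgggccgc

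Beside these elements, the probe sets used differed in Keap1-HKO mice by -0.39 (Hspa5), -0.93 (Hsp90b1), -0.08 (Pdia6) and -0.19 (Dnajc3) on the log2 scale. None passed the test, and Pdia6 varied only from 9.92 to 10.26 over the 12 arrays. The match of letters is a description and does not show a bound site.

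The mitochondrial chaperonin offers a contrast within a shared promoter. Hspd1 (Hsp60) forms the folding chamber and Hspe1 (Hsp10) its lid, and the genes lie head to head. The heat shock element, here GAA, TTC and GAA with 2 bases of any kind between neighbours, was found on either strand in Hspd1, Hspe1, Dnajb6 and Hsph1 (6 of 59 promoters, 10.2%, beside 0.603% of 32851). Hspd1 and Hspe1 share a pair of overlapping matches, and one of the pair is shown here in the direction of each gene, as the same bases read on opposite strands.
Hspd1, chr1:55088039-55088091, minus strand: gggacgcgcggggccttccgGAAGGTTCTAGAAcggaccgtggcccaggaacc
Hspe1, chr1:55088039-55088091, plus strand: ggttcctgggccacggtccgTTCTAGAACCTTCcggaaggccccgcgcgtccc
Dnajb6, chr5:29735832-29735884, plus strand: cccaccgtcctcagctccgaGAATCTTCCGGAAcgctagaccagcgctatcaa

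Hspd1 had log2 intensities of 11.37, 12.33 and 12.13 in Nrf2-null and 10.77, 12.26 and 12.24 in Keap1-HKO mice, beside 11.96, 12.44 and 12.18 in wild-type mice. Hspe1 had 12.44, 12.35 and 12.29 in Nrf2-null and 12.37, 12.22 and 12.24 in Keap1-HKO mice, beside a highest value of 12.16 in wild-type mice. Hspd1 was low on replicate 1 of both genotypes, whereas Hspe1 was not, and all Nrf2-null and Keap1-HKO values of Hspe1 lay above wild-type. The log2 fold changes of Hspe1 were 0.28 in Nrf2-null and 0.20 in Keap1-HKO mice (limma adjusted p = 0.722 and 0.409). Those of Hspd1 were -0.25 and -0.44 (limma adjusted p = 0.849 and 0.505). Of Dnajb6, a DnaJ protein that holds back aggregation, the value in Keap1-HKO mice was 9.90, 10.99 and 11.11, against 10.99, 11.21 and 10.86 in wild-type mice.

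The antioxidant response element TGACNNNGC on either strand, the core to which Nrf2 binds with small Maf proteins, was found in 14 of the 59 promoters (23.7%, beside 12.4% of 32851), in 11 members: Bag1, Cct2, Cct6a, Dnaja2, Dnajb1, Dnajb2, Dnajc14, Dnajc17, Hsph1, Pdia3 and Tcp1. None of the 11 passed in Keap1-HKO against wild-type mice in the fit of all arrays. By the probe sets used, their log2 fold changes ran from -0.10 (Pdia3) to 0.42 (Dnajc17). Dnaja2 and Hsph1 passed in other fits, as given above. The promoters of the members Hspa8, Bag4, Hspa9, Dnajc5, Dnajc22, Hsp90aa1, Hspa13, Dnajc30, Dnajc12, Cct4 and Dnajc2 were not analysed here.

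In the Cct ring, a chaperonin of 8 subunits of which all 8 were measured, none was called by limma in any contrast in the fit of all arrays. Duncan's test, unadjusted over genes, called Tcp1 higher in Nrf2-null mice, Cct8 lower in Keap1-HKO mice against each other genotype, and Tcp1 lower in Keap1-HKO than in Nrf2-null mice. Array quality weights called Tcp1 (0.63, limma adjusted p = 0.000362) and Cct5 (0.21, limma adjusted p = 0.0486) higher in Nrf2-null mice. Tcp1 (Cct1) had 10.33, 10.32 and 10.53 in Nrf2-null and 10.05, 9.90 and 9.82 in wild-type mice, without overlap. It was the only member with an unadjusted p under 0.05 in Nrf2-null mice (log2 fold change 0.47, SE 0.12, limma adjusted p = 0.24). Cct5 had 12.01, 11.50 and 11.62 in Keap1-HKO against 11.32, 11.18 and 11.33 in wild-type mice (0.44, limma adjusted p = 0.177). Cct8 was narrow, with 9.92, 10.04 and 9.88 in Keap1-HKO against 10.14, 10.15 and 10.17 in wild-type mice, a log2 difference of -0.21 (limma adjusted p = 0.303). Over the 8 subunits the log2 fold change in Keap1-HKO mice ran from -0.22 to 0.44.

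Of the 10 cytosolic DnaJ members, those lowest on Keap1-HKO replicate 1 were Dnaja1, Dnajb4, Dnajc2, Dnajc21, Dnajb6 and Dnaja2. Dnajb1 (Hsp40), a partner of Hspa1b and a heat shock target, differed by 0.05 in Keap1-HKO and -0.36 in Keap1-KD mice (log2) by the probe set used. Its other probe set, with dimmer genotype means of 6.70 to 7.34, gave 0.64 and 0.02. The value of 0.64 did not pass (limma adjusted p = 0.0576 over all probe sets). Of the 4 mitochondrial DnaJ members, Dnaja3 (Tid1) varied from 9.11 to 9.35 over the 12 arrays. Dnajc4 was under an intensity of 100 in wild-type and Nrf2-null mice, and its mean intensity of 144.7 in Keap1-HKO mice was at least 1.45-fold higher, with 7.85 on replicate 1 and 6.64 and 6.69 on the others. Dnajc21, a ribosome assembly factor, had 7.22, 7.28 and 7.06 in wild-type and 4.83, 7.17 and 6.82 in Keap1-HKO mice. The mean intensity of 145.9 in wild-type mice was at least 1.46-fold above Keap1-HKO, a bound that rests on Keap1-HKO replicate 1. Without that array the log2 fold change went from -0.92 to -0.19, with no call in either fit (limma adjusted p = 0.388 and 0.89).

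All 4 Bag members had a positive log2 fold change in Keap1-HKO mice by the probe set used, from 0.25 to 0.41, and none passed. The second Bag4 probe set gave -0.225. Over the alternative fits the lowest values were -0.13 for Bag1, 0.23 for Bag3, 0.01 for Bag4 and -0.15 for Bag6. Bag3, which links Hsp70 and small heat shock proteins to autophagy, had 9.75, 9.49 and 8.98 in Keap1-HKO against 8.83, 8.78 and 8.78 in Keap1-KD mice, without overlap (0.61, limma adjusted p = 0.25). In wild-type mice it had 8.87, 9.34 and 8.80, the highest again on the array with muscle markers. The small heat shock protein Hspb1 (Hsp25) spread from 8.09 to 9.42 within Keap1-HKO and from 8.18 to 9.59 within Keap1-KD mice, against 8.17 to 8.55 in wild-type mice.

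**Figure D5:**
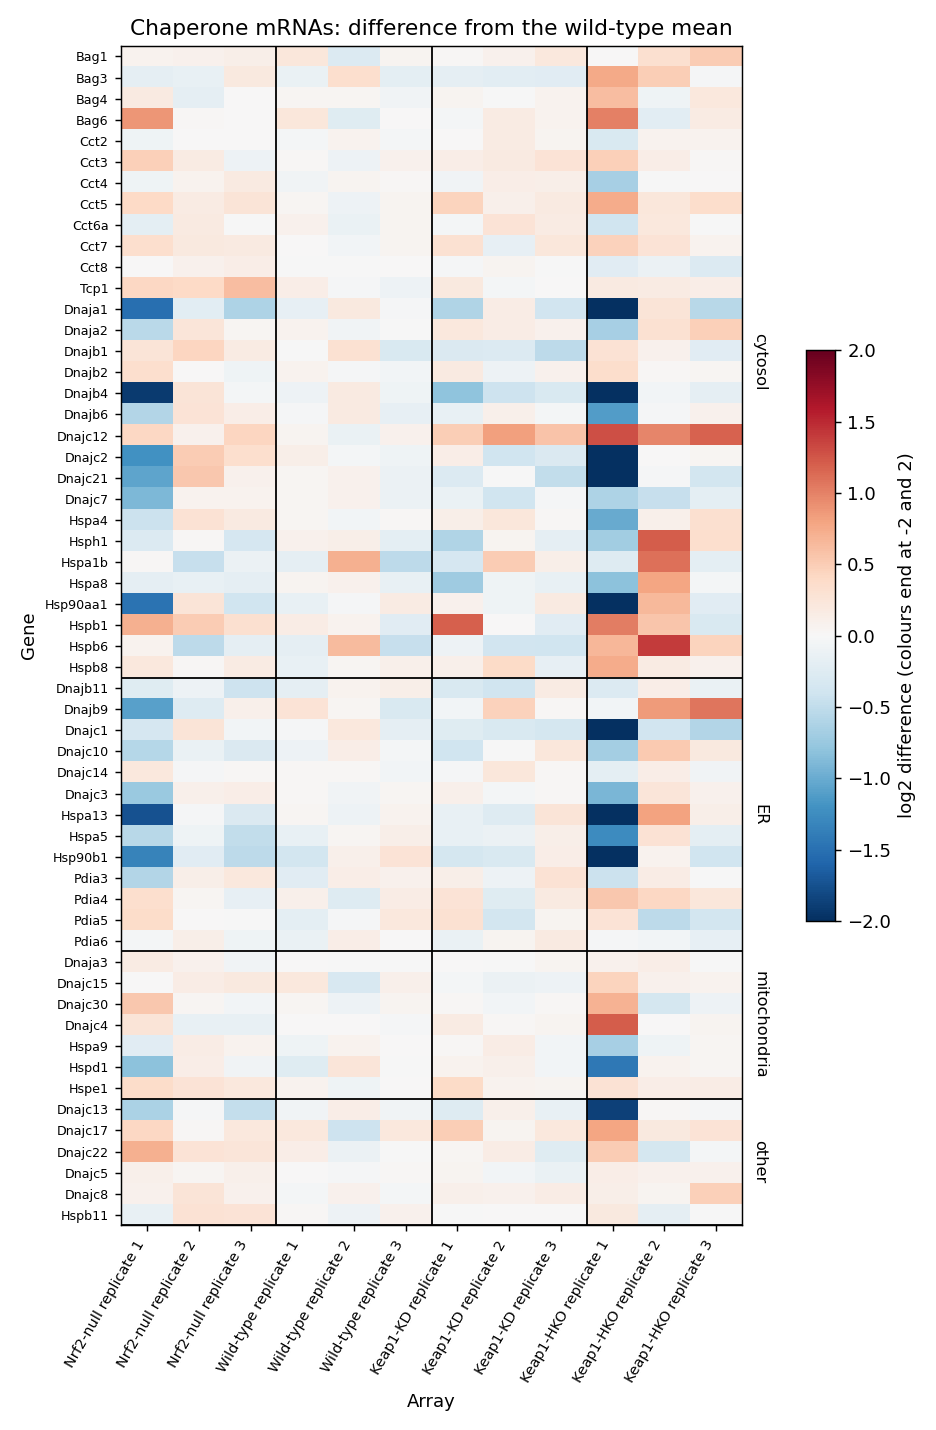
Difference of each array from the wild-type mean (colour, log2, ending at -2 and 2) for the 56 chaperone genes (rows, by compartment) on the 12 arrays (columns). The Keap1-HKO replicate 1 column is dark blue for Hspa13, Dnajc2, Dnaja1 and Hsp90aa1, Nrf2-null replicate 1 is blue for the same genes, and Dnajc12 is red in all 3 Keap1-HKO columns.

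Folding partners outside the rule gave few calls. In Keap1-HKO against wild-type mice, 2.1% of all genes were called higher and 1.84% lower. At an unadjusted p under 0.05 the shares were 9.26% and 9.39%. Against Nrf2-null 4.51% of all genes were called higher and 4.63% lower. Of 14 partners of cytosolic Hsp90 and Hsp70, 1 was called in Keap1-HKO mice, upward: Fkbp5, an immunophilin co-chaperone of Hsp90 in steroid receptor complexes. Its log2 intensities were 7.16, 6.68 and 7.17 in wild-type and 8.56, 8.73 and 8.91 in Keap1-HKO mice, without overlap, with 7.58, 7.74 and 7.42 between them in Keap1-KD mice. The log2 fold change was 1.73 (SE 0.16, limma adjusted p = 0.000265). Of 9 mitochondrial partners 0 rose and 1 fell, Clpx, the unfoldase of the matrix protease ClpXP, from 10.94, 11.11 and 11.38 in wild-type to 9.81, 10.16 and 10.30 in Keap1-HKO mice (limma adjusted p = 0.017). Of 7 prefoldin subunits, which hand clients to the Cct ring, none passed against wild-type by limma, with 1 higher and 1 lower at an unadjusted p under 0.05. Against Nrf2-null 1 was lower in Keap1-HKO mice, Pfdn6, by a log2 difference of -0.56 (limma adjusted p = 0.0413), beside 4.63% of all genes. Against Nrf2-null 1 of the mitochondrial partners was higher, the protease subunit Afg3l2 (0.53, limma adjusted p = 0.0222), and Clpx was lower (-1.07, limma adjusted p = 0.00839). Of the cytosolic partners, Fkbp5 (1.80) and Hsbp1, a heat shock factor binding protein (0.49, limma adjusted p = 0.0471), were higher.

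Of 17 ER folding partners none passed in Keap1-HKO against wild-type. Against Nrf2-null 3 were higher and 0 lower, beside 4.51% and 4.63% of all genes: Creld2 by 1.66, Ero1b by 0.95 and Manf by 0.86 on the log2 scale (limma adjusted p = 0.0236, 0.0387 and 0.0497). Without the pancreas and muscle arrays the differences were 1.48, 0.51 and 0.88, and Creld2 alone passed (limma adjusted p = 0.0473, 0.192 and 0.0776), in a fit that called 31.4% of all genes. Creld2 and Manf are secreted ER stress proteins and Ero1b an oxidase of disulfide isomerases. Of 16 genes of the unfolded protein response and ER degradation, 1 rose in Keap1-HKO mice, beside 2.1% of all genes. This was Trib3, a pseudokinase induced by ER and amino acid stress. It was under an intensity of 100 in wild-type mice, so its mean intensity of 380.2 in Keap1-HKO mice was at least 3.8-fold higher (limma adjusted p = 0.0377). Syvn1, the ubiquitin ligase of ER degradation, was higher in Keap1-HKO than in Nrf2-null mice by 1.10 (limma adjusted p = 0.0098), and by the same 1.10 without the pancreas and muscle arrays (limma adjusted p = 0.0375). In that fit Trib3 passed against wild-type as well (limma adjusted p = 0.021). In the fit of all arrays, the probe sets used for Hspa5 and Hsp90b1 differed between Keap1-HKO and Nrf2-null mice by -0.01 and -0.24 and did not pass. Without the pancreas and muscle arrays, where Keap1-HKO replicate 1 stands alone, these probe sets differed by -0.88 and -1.77. The second Hsp90b1 probe set differed by -1.08 in the fit of all arrays and did not pass (limma adjusted p = 0.0716 over all probe sets).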

How the data were processed

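Liver mRNA of 12 mice was measured on 12 Affymetrix arrays. The authors deposited log2 values normalized by gcRMA (background correction, quantile normalization and probe set summary), and kept a probe set if 1 genotype or more passed an intensity of 100. Of 9622 probe sets 8554 carried 1 gene symbol, 371 several and 697 none; 51 of the latter are controls. For each symbol the probe set with the highest mean over all arrays was kept, giving 5856 genes.

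Groups were taken from the labels. limma 3.58.1 in R 4.3.3 fitted the 4 genotypes in 1 model (8 residual degrees of freedom), tested 6 contrasts (the trend with weights -3, -1, 1 and 3) and adjusted p-values by Benjamini-Hochberg over all genes. A fold against a genotype under an intensity of 100 is given against 100, as at least that fold. The number of arrays limits the precision. The fitting procedure was checked on simulated data with independent noise of equal spread on every array. That check does not cover arrays that stand apart or replicates that deviate together.

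Members named are those called in any contrast, up to 4 with the lowest overall p per family and compartment, and a fixed list of well-known chaperones; of other lists, the genes called and up to 3 with the lowest overall p, of which the called ones are printed. Other genes named were chosen after their values were seen. Members and lists were chosen with earlier results of these data known. Compartments were assigned by hand from general knowledge. Same-numbered replicates deviated together in Keap1-HKO against Nrf2-null (r = 0.787, 0.685 and 0.699). In all, 15 of 18 same-numbered pairs had r over 0.1, by the labels' replicate numbers only. Replicates 2 and 3 of these 2 genotypes also went together across numbers (r = 0.622 and 0.426), while replicate 1 against 2 or 3 gave -0.799 to -0.582. Deviations from a mean of 3 arrays are not independent. The fit without a block is the main one. Alternatives covered filter, floor, normalization, centring, probe set choice, form of test, array weights, block, the methods' Duncan's multiple range test and arrays left out. Bile duct markers were not analysed here; Kupffer cell, endothelial, stellate and blood lists (5, 5, 5 and 1 genes) gave 0 calls against wild-type except Alas2 of blood, lower in Keap1-HKO mice.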

Additional observations from a re-analysis of the deposited data

How the results depend on the processing

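The call of Dnajc12 in Keap1-HKO against wild-type held in every alternative run. The counts of members called, in the order Nrf2-null, Keap1-KD and Keap1-HKO against wild-type, then Keap1-HKO against Nrf2-null and the trend, were 10, 1, 3, 2 and 4 with array quality weights, beside 23.5%, 5.52%, 5.43%, 14.3% and 15.8% of all genes. The 10 were Cct5, Dnajb1, Dnajc12, Hspb11, Hspe1 and Tcp1 (higher) and Dnaja1, Dnajb11, Hsp90b1 and Hspa5 (lower); Hspb6 and Hsph1 were called in the last 3 contrasts. With the methods' Duncan's multiple range test, unadjusted, they were 2, 1 and 3 against wild-type, 4 in Keap1-HKO against Nrf2-null and 4 in Keap1-HKO against Keap1-KD, beside 5.4%, 2.25%, 12%, 14.5% and 9.61% of all genes. With only the groups compared, 0 were called in Keap1-HKO against Nrf2-null. Without replicate 1 of both Keap1-HKO and Nrf2-null there were 3 in Keap1-HKO against wild-type, 5 against Nrf2-null and 4 in the trend, beside 11.5%, 20.9% and 20.8% of all genes. Without the 3 arrays with pancreas or muscle markers, a choice made after seeing the data that leaves Keap1-HKO replicate 1 alone and assumes it varies like the other groups, the counts were 21 in Keap1-HKO against wild-type (38.5% of all genes), 18 against Nrf2-null (31.4%), 22 against Keap1-KD (41.3%) and 16 in the trend (29.5%). Hspa13 then reversed, to -2.06 against Nrf2-null and -6.29 in the trend, since the low array is then the whole group. With the replicate number as a block the count in each contrast was unchanged; with the block and only the groups compared, also added after seeing the data, Keap1-HKO against Nrf2-null gave 2, Dnajb9 being the second (1.04, limma adjusted p = 0.0137).

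Leaving out 1 array at a time gave 0 members in Nrf2-null and Keap1-KD, 1 in Keap1-HKO against wild-type, 1 to 4 in Keap1-HKO against Nrf2-null (4 without Keap1-HKO replicate 1, 2 without wild-type replicate 2), 0 in Keap1-HKO against Keap1-KD and 1 to 2 in the trend. The ER minus cytosol difference in Keap1-HKO mice ran from -0.297 to -0.0638, the last without replicate 1 and also without both arrays that stood apart, and was -0.283 with a filter at an intensity of 200. Only Dnajc21, Dnajc4 and Dnajc7 had a genotype mean under an intensity of 100 (6.64 on the log2 scale). Other members lay close above it, such as Bag6 with genotype means of 6.94 to 7.26 and Dnajc10 with 7.05 to 7.40.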
